A study of Homo sapiens with 8 samples.

Results

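The genes described here are 10 genes of the YAP-TEAD pathway, namely the coactivators YAP1 and WWTR1, the DNA-binding factors TEAD1 and TEAD4, the target genes CCN1, CCN2, ANKRD1, AMOTL2 and AXL, and the kinase LATS2. They were chosen by name as pathway members, through the RefSeq accession that the array file gives for each probe, and the rule itself uses no measured value, although the list was drawn up with earlier results of these data known. Each was represented by 1 probe among 47753 named genes or transcripts on the array, and 9 of the 10 were among the 15456 genes that could be tested. All samples came from OAW42-R, a cell line resistant to cisplatin whose parent, OAW42, comes from a serous ovarian cancer. The sictrl group received a pool of nontargeting siRNAs and the siUCA1 group a mixture of 2 siRNAs, numbers 2 and 4, against the long noncoding RNA UCA1. Both were transfected with INTERFERin at a final siRNA concentration of 20 nM, and each group held 4 arrays, from replicates named A1, M2, A2 and A3. RNA was extracted 24 h after transfection by the labels, and at a later time by the study's methods. One cell line and 1 mixture of siRNAs limit the model, since an effect of the mixture beyond UCA1 cannot be told apart from one of UCA1.

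YAP1 and WWTR1 (whose protein is also called TAZ) are transcriptional coactivators that do not bind DNA themselves. In the nucleus they bind TEAD factors and switch on genes of growth, adhesion and survival. The Hippo kinases STK3 and STK4 activate LATS1 and LATS2, which phosphorylate YAP1 and WWTR1 and keep them in the cytoplasm or send them for degradation, so that much of this control acts on protein and is not read by RNA levels. Several targets, among them AMOTL2 and LATS2, act back on the pathway as inhibitors, and YAP1 is a known oncogene in ovarian carcinoma.

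TEAD factors bind DNA at a core motif, GGAATG, or CATTCC when it is read on the opposite strand. In RefSeq promoters of GRCh38.p14, 7 of the 10 genes had an entry (10 entries in all, since WWTR1, AMOTL2 and AXL have more than 1), and CCN1, TEAD1 and TEAD4 were named only. The 250 bases before the start were searched on both strands, and matches of both forms were counted. At least 1 match was held by 11.9% of the 35116 promoters in the table, and 2 or more by 0.94%. CCN2 held 3 matches and ANKRD1 held 2, while YAP1, the second AMOTL2 entry and the second AXL entry each held 1. Both WWTR1 entries, the first AMOTL2 and first AXL entries and LATS2 held 0, which says only that these letters are not in this window. The sequences of ANKRD1 and CCN2 are shown because they held the most matches, and that of AMOTL2 as 1 of 2 target gene entries, with that of AXL, that hold a single match read on the other strand. ANKRD1 lies at chr10:90921088-90921337, CCN2 at chr6:131951373-131951622 and AMOTL2 at chr3:134374448-134374697, all on the minus strand, and capitals mark the matches. The matches began between 128 and 220 bases before the start in ANKRD1, between 95 and 169 in CCN2 and 69 before it in AMOTL2.
ANKRD1: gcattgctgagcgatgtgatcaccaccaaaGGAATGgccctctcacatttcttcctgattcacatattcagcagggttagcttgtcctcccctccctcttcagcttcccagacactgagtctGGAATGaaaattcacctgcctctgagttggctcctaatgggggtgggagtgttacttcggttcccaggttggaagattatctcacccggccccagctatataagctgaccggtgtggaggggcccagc
CCN2: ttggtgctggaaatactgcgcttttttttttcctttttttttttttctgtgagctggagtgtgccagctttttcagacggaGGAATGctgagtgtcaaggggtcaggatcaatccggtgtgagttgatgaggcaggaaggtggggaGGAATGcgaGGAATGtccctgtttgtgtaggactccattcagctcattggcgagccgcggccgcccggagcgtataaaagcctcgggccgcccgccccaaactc
AMOTL2: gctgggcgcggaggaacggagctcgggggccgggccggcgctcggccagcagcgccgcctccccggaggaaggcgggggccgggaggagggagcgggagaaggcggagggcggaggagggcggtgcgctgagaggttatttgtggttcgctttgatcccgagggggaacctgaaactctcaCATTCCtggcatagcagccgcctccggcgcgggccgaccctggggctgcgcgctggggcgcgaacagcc
A match is a description of the sequence and not a measured binding site.

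UCA1 and the arrays were examined first. UCA1 fell by 5.04 on the log2 scale (SE 0.29, adjusted p = 0.000122, limma), with no overlap between the groups. All arrays lay on 1 slide with 1 scan date. Feature Extraction removes a trend in brightness over the array surface, and the root mean square of that trend was 0.321 on sictrl A3 and 0.287 on siUCA1 A1, against 0.0737 to 0.0943 on the other 6 arrays. Of 9 epithelial markers of ovarian carcinoma, 7 were well above background on all 8 arrays (EPCAM, KRT7, KRT8, KRT18, KRT19, CDH1 and PAX8), whereas MUC16 and WT1 were well above it on none. Among markers of other cells, 5 of 6 fibroblast genes, CD3E, CDH5 and KDR were well above background on 0 arrays, COL1A1 on 5, PTPRC on at most 2 and PECAM1 on at most 1, while CD14 and VWF were above it on 8. Of these markers, CDH1, which encodes E-cadherin, was called lower (log2 fold change -0.81, SE 0.16, adjusted p = 0.0149), and CD14 was called higher (0.70, SE 0.19, adjusted p = 0.0478). CDH1 stayed called in all 8 fits that left out 1 array, and CD14 in 1 of them. Their part in the results on YAP-TEAD genes was not tested.

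After siUCA1, 2 of the 9 members that could be tested were called, CCN1 and ANKRD1, and both were lower. A gene is called here when its adjusted p in limma's moderated test, corrected with Benjamini-Hochberg over all 15456 genes, is under 0.05. The same rule called 11.6% of all genes tested, 5.85% as lower and 5.72% as higher, and 2 of 9 members is too few to be set apart from that background. The other 7 members tested were not called, and the coactivators and TEAD factors were among them. No member was called higher, although 4 (YAP1, TEAD4, AMOTL2 and LATS2) were higher at an unadjusted p under 0.05, as were 2245 of all genes tested. Of the 9 fold changes, 6 were above 0 and 3 below, with a median of 0.18 on the log2 scale against 0.03 for all genes tested. All values are log2 intensities relative to the 75th percentile of the same array, so that 0 stands for that percentile, and levels of different probes cannot be compared with each other. They are averages over a culture, in which fewer cells expressing a gene and less RNA per cell cannot be told apart.

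**Figure D1:**
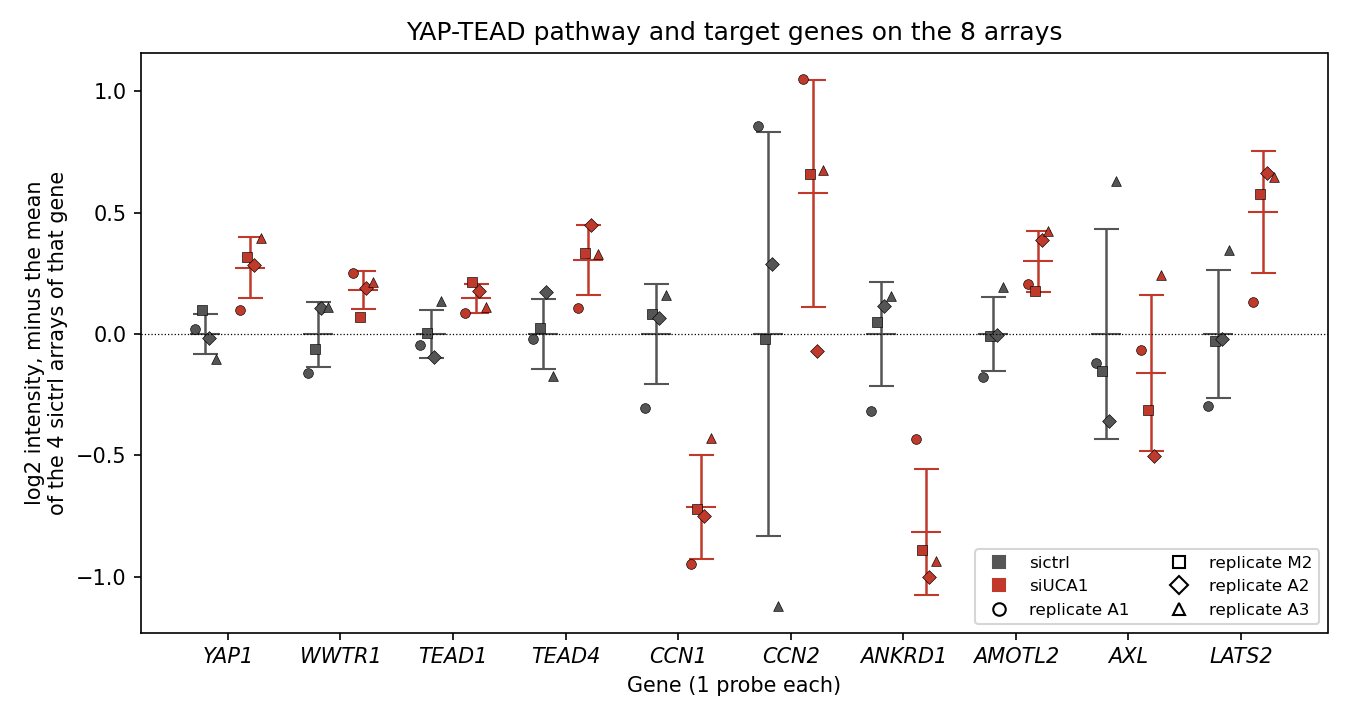
Log2 intensity of each member (x axis) on each of the 8 arrays, after subtraction of that gene's mean over the 4 sictrl arrays (y axis, log2 units). Grey points are sictrl and red points siUCA1, marker shapes give the replicate name, and horizontal lines with bars give the mean and SD of 4 arrays. The 4 siUCA1 arrays lie below all sictrl arrays for CCN1 and ANKRD1, and the points of CCN2 and AXL are the most spread.

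CCN1 encodes a secreted matricellular protein that binds integrins, and it is among the best known genes switched on by YAP-TEAD. Its level was 6.08 in sictrl A1, 6.46 in M2, 6.45 in A2 and 6.54 in A3, and 5.43, 5.66, 5.63 and 5.95 in the siUCA1 arrays of the same names. Every siUCA1 array lay below every sictrl array. The mean fell from 6.38 ± 0.21 (SD, n = 4) to 5.67 ± 0.21 (SD, n = 4), a log2 fold change of -0.71 (SE 0.14, 95% interval -1.04 to -0.38) or a 1.64-fold lower level, with an adjusted p of 0.0173. The exact permutation test over the 8 arrays gave p = 0.0286 (two-sided), the smallest that 4 arrays against 4 allow. CCN1 was 0.59 to 0.82 lower in siUCA1 between arrays of the same name. The call was lost when sictrl M2, sictrl A2, siUCA1 M2 or siUCA1 A2 was left out (adjusted p = 0.058, 0.0589, 0.0516 and 0.0581), with fold changes of -0.68, -0.69, -0.71 and -0.70.

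ANKRD1 encodes an ankyrin repeat protein first known from heart muscle and is another widely used readout of YAP activity. Its level was 2.81 in sictrl A1, 3.18 in M2, 3.24 in A2 and 3.28 in A3, and 2.70, 2.24, 2.13 and 2.19 in the siUCA1 arrays of the same names. The groups did not overlap, although siUCA1 A1 lay only 0.12 below sictrl A1, against differences of 0.94 to 1.11 for the other names. The mean fell from 3.13 ± 0.22 (SD, n = 4) to 2.32 ± 0.26 (SD, n = 4), a log2 fold change of -0.81 (SE 0.16, 95% interval -1.17 to -0.45) or a 1.76-fold lower level, with an adjusted p of 0.0146. The exact permutation p was 0.0286. The call was lost without sictrl A2 (-0.78, adjusted p = 0.0527) or without siUCA1 A2 (-0.75, adjusted p = 0.0525). Groups that did not overlap, with siUCA1 lower, were found for 9.67% of all genes with a value in every array.

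CCN2, a relative of CCN1 that drives matrix production and is the third commonly used readout, was too dim to be tested. Only 2 sictrl arrays and 3 siUCA1 arrays had its probe well above background, so that it did not pass the filter in either group. Its values were -1.88, -2.76, -2.45 and -3.86 in sictrl and -1.69, -2.07, -2.80 and -2.06 in siUCA1, in the order A1, M2, A2 and A3. The groups overlapped, with sictrl A3 below every siUCA1 array. The siUCA1 mean was 0.58 above the sictrl mean (exact permutation p = 0.314), and without any filter on dim probes the fit gave an SE of 0.42 and an adjusted p of 0.89. The direction of CCN2 is therefore not settled by these arrays.

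AMOTL2, a junction-associated scaffold that binds YAP1 and holds it out of the nucleus, is itself a YAP-TEAD target. Its level was 7.12, 7.29, 7.30 and 7.49 in sictrl and 7.51, 7.48, 7.69 and 7.73 in siUCA1. A single pair of arrays overlapped, sictrl A3 and siUCA1 M2. The log2 fold change was 0.30 (95% interval 0.05 to 0.55, adjusted p = 0.12) and the exact permutation p was 0.0571, so AMOTL2 was not called. AXL, a receptor tyrosine kinase linked to invasion and drug resistance, had levels of 0.62, 0.59, 0.38 and 1.37 in sictrl and 0.67, 0.43, 0.24 and 0.98 in siUCA1. The array of replicate A3 was the highest in each group, and the ranges overlapped. The log2 fold change of AXL was -0.16 with an interval from -0.69 to 0.37 (adjusted p = 0.709), which still allows a change in either direction. Without sictrl A3 it was 0.05.

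LATS2, the kinase that restrains YAP1 and is also transcribed in response to it, had the highest fold change among the members tested, without being called. Its level was 0.20, 0.47, 0.47 and 0.84 in sictrl and 0.63, 1.07, 1.16 and 1.14 in siUCA1. Of the siUCA1 arrays, A1 stood below the other 3 and inside the sictrl range. The log2 fold change was 0.50 (SE 0.17, 95% interval 0.12 to 0.89, adjusted p = 0.0895, exact permutation p = 0.0571). LATS2 was called higher without siUCA1 A1 (0.63, adjusted p = 0.0302) or without sictrl A3 (0.62, adjusted p = 0.0383), the arrays with the strong surface trend, and with both left out it stood at 0.74 (adjusted p = 0.00505). Over 25 alternatives in processing, model or arrays it was called in 6 and not in 19. Those without a call included median scaling (0.41, adjusted p = 0.407) and normexp background correction (0.36, adjusted p = 0.311). Without siUCA1 A2 it was 0.45 (adjusted p = 0.211).

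Neither coactivator was called. YAP1, whose probe was printed on 10 spots, had levels of 3.67, 3.74, 3.63 and 3.54 in sictrl and 3.74, 3.96, 3.93 and 4.04 in siUCA1. The groups did not overlap but lay almost against each other, with the highest sictrl array at 3.742 and the lowest siUCA1 array at 3.743. The log2 fold change was 0.27 (SE 0.10, 95% interval 0.05 to 0.50, adjusted p = 0.111), and the exact permutation p was 0.0286, in a table where 11.2% of genes were higher in siUCA1 without overlap. Without siUCA1 A1 it was 0.33 and called (adjusted p = 0.0466). Over 25 alternatives YAP1 was called in 3 and not in 22. Those without a call included median scaling (0.18, adjusted p = 0.813) and normexp background correction (0.26, adjusted p = 0.423). WWTR1 had levels of 4.30, 4.40, 4.57 and 4.58 in sictrl and 4.72, 4.54, 4.66 and 4.68 in siUCA1. Its groups overlapped, with a log2 fold change of 0.18 (95% interval -0.04 to 0.41, adjusted p = 0.277).

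The TEAD factors that carry the coactivators to DNA were not called either. TEAD1 had levels of 4.39, 4.44, 4.34 and 4.57 in sictrl and 4.52, 4.65, 4.61 and 4.55 in siUCA1. Its groups overlapped and its log2 fold change was 0.15 (95% interval -0.06 to 0.35, adjusted p = 0.332). TEAD4 had levels of 3.32, 3.37, 3.52 and 3.17 in sictrl and 3.45, 3.68, 3.79 and 3.67 in siUCA1. Only the siUCA1 A1 array fell within the sictrl range, and the log2 fold change was 0.30 (95% interval 0.05 to 0.56, adjusted p = 0.12, exact permutation p = 0.0571).

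**Figure D2:**
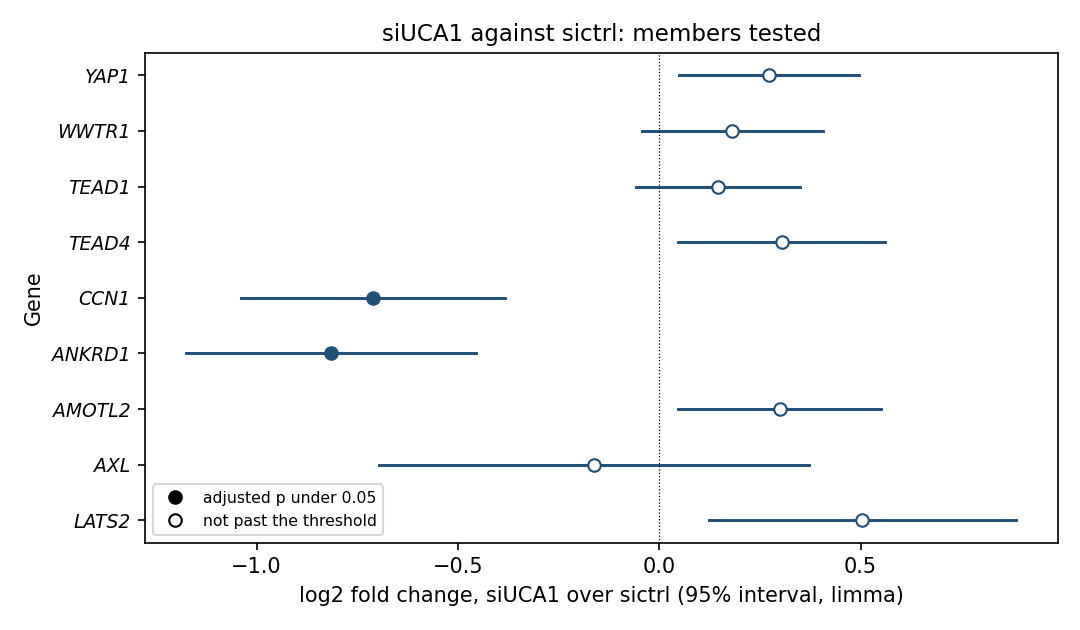
Log2 fold change of siUCA1 over sictrl (x axis) for the 9 members tested (y axis), with the 95% interval from limma and 4 arrays per group. Filled points passed an adjusted p of 0.05. CCN1 at -0.71 and ANKRD1 at -0.81 are filled, and the other intervals are narrowest for TEAD1 and widest for AXL.

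The number of members called moved with the arrays and the model, while the direction of CCN1 and ANKRD1 did not. Over 25 alternatives, CCN1 ranged from -0.81 to -0.58 and ANKRD1 from -0.94 to -0.67, and CCN1 was called in 18 and ANKRD1 in 20 of them. The alternative that read the deposited value table used the same intensities, so its outcome was fixed in advance and it adds nothing to these counts. With sictrl A3 and siUCA1 A1 left out together, 6 members were called, with AMOTL2 (0.39), LATS2, TEAD4 (0.31) and YAP1 (0.30) higher, CCN1 and ANKRD1 lower. Weighting the arrays by their quality called 7, the same 6 and TEAD1 (0.21, adjusted p = 0.0477). CCN1 was not called with median scaling (adjusted p = 0.0691), with normexp background correction (0.0651) or without the detection filter (0.224), nor ANKRD1 in the last 2 of these (0.0761 and 0.181). Leaving out sictrl A3 and siUCA1 A1, and array weights, also raised the genes called over the whole table, to 3878 and 4599 from 1788. Leaving out sictrl A2 or siUCA1 A2 left 0 members called.

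**Figure D3:**
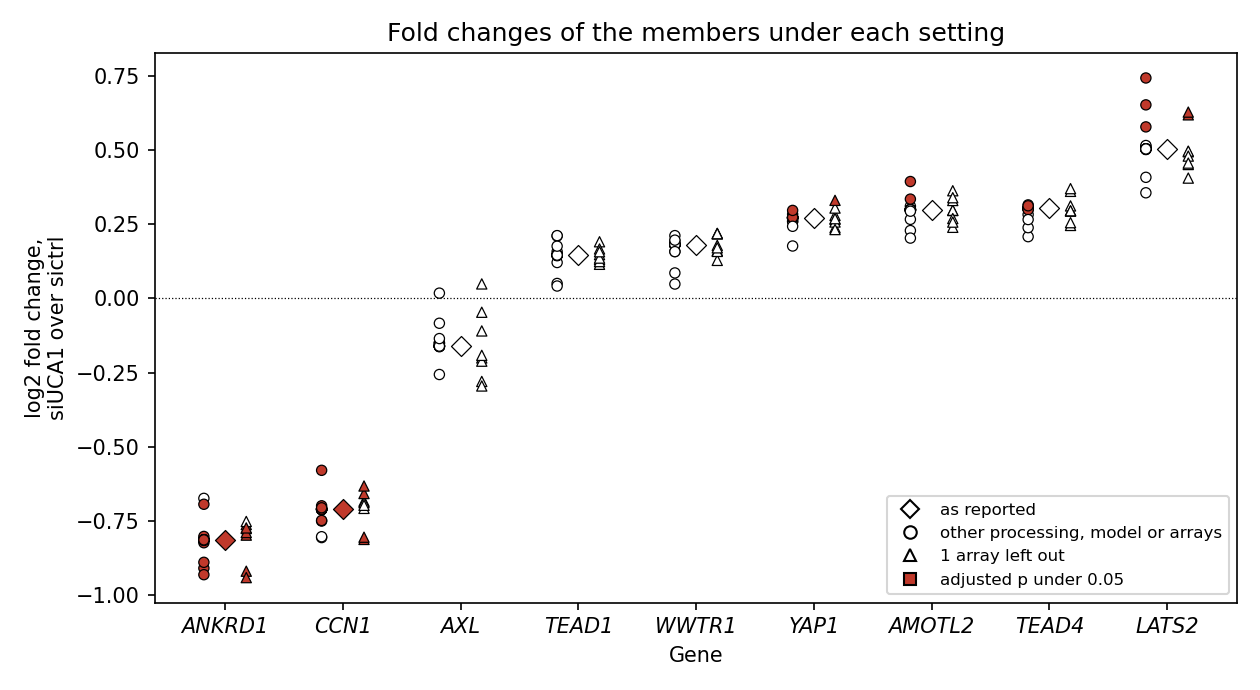
Log2 fold change of siUCA1 over sictrl (y axis) for each member tested (x axis) as reported (diamonds), under other processing, models or sets of arrays (circles), and with 1 array left out (triangles). Red fill marks an adjusted p under 0.05. CCN1 and ANKRD1 stay below 0 throughout, AXL crosses 0, and the other 6 members stay above 0.

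Of 16 further genes known to be activated by YAP-TEAD, 11 could be tested, 2 were called higher by limma and 0 lower (5 and 0 at an unadjusted p under 0.05). Over all genes tested 5.72% were called higher, and 2 of 11 is too few to be set apart from that background. At an unadjusted p under 0.05, 2245 of all 15456 genes tested were higher and 2018 lower. NT5E, which encodes the adenosine-producing surface enzyme CD73, had levels of -0.68, -1.40, -1.24 and -0.40 in sictrl and 1.18, 0.24, 0.06 and 0.70 in siUCA1. Every siUCA1 array lay above every sictrl array. The log2 fold change was 1.47 (SE 0.29, adjusted p = 0.0157), a 2.78-fold higher level, and a second probe of the gene gave 1.17 (adjusted p = 0.00795 over all probes). F3, which encodes tissue factor, the trigger of coagulation, had levels of 3.15, 3.55, 3.58 and 2.73 in sictrl and 4.13, 4.48, 4.06 and 4.07 in siUCA1. The groups did not overlap, and the log2 fold change was 0.93 (SE 0.20, adjusted p = 0.0199), a 1.91-fold higher level. NT5E lost its call without sictrl A2 (1.37, adjusted p = 0.0541), and F3 without sictrl A1 (0.90, adjusted p = 0.0566), siUCA1 M2 (0.84, adjusted p = 0.0606) or siUCA1 A2 (0.98, adjusted p = 0.0522). With normexp NT5E was at 0.74 and still called. F3 was also not called with median scaling (adjusted p = 0.136) or normexp (adjusted p = 0.24), and neither gene without the detection filter (adjusted p = 0.139 for NT5E and 0.194 for F3).

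Among the target genes not called, the 3 with the highest mean level were MYOF, which encodes the membrane repair protein myoferlin (0.36, adjusted p = 0.376), the kinase gene NUAK2 (0.26, adjusted p = 0.136) and PTPN14, whose phosphatase binds YAP1 (0.20, adjusted p = 0.229). MYOF stood at 5.63 in siUCA1 A1 against 6.60 to 6.74 in the other siUCA1 arrays, and without that array it was called higher (0.62, adjusted p = 0.0218). A second probe of MYOF gave 0.24 (adjusted p = 0.151 over all probes), and the mean of its probes was 0.30 (adjusted p = 0.221). The median log2 fold change of the 11 genes was 0.36, with 9 above 0 and 2 below, against 0.03 over all genes tested. The 5 target members and these 16 genes with LATS2 make 22 target genes, of which 16 could be tested, 2 were called higher and 2 lower. Over all genes tested 11.6% were called, 5.72% as higher and 5.85% as lower. The 4 called of 16 are too few to be set apart from that background.

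Upstream of YAP1, 22 of 26 Hippo regulators could be tested and limma called 3 higher and 0 lower (5 and 1 at an unadjusted p under 0.05). This share is near the 11.6% called over all genes tested and is not a result about the regulators as a group. At an unadjusted p under 0.05, 2245 of all 15456 genes tested were higher and 2018 lower. WWC3, a scaffold of the KIBRA family that promotes LATS activity, had levels of 2.78, 2.68, 2.66 and 2.34 in sictrl and 3.45, 3.29, 3.32 and 3.21 in siUCA1. The groups did not overlap, and the log2 fold change of 0.70 (SE 0.12, adjusted p = 0.00849) stayed called whichever array was left out. TAOK1 and TAOK2 encode kinases that activate STK3 and STK4. TAOK1 was 0.41 higher (adjusted p = 0.0328), and this call was lost without any of sictrl M2, sictrl A2, siUCA1 M2, siUCA1 A2 or siUCA1 A3 (0.38 to 0.45, adjusted p = 0.0618 to 0.103). The brightest probe of TAOK2 was 0.70 higher (adjusted p = 0.0117), whereas a second probe, for another transcript record, was at -0.43 (adjusted p = 0.302 over all probes), so that the gene as a whole has no settled direction. The mean of both TAOK2 probes was 0.13. With median scaling none of WWC3, TAOK2 and TAOK1 was called (adjusted p = 0.178, 0.166 and 0.578), nor without the detection filter (adjusted p = 0.164, 0.188 and 0.478). TAOK1 was also not called with quantile normalization (adjusted p = 0.0558), normexp (adjusted p = 0.346) or the slide row as a block (adjusted p = 0.0578). NF2 (the tumour suppressor merlin), WWC1 (KIBRA itself) and the LIM protein gene WTIP, the 3 with the highest mean level among those not called, were at -0.16, -0.19 and 0.09 (adjusted p = 0.365, 0.262 and 0.573). The median of the 22 regulators was 0.05, with 12 above 0 and 10 below, against 0.03 over all genes tested.

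TEAD2 and TEAD3 share the DNA-binding domain of the members, and the VGLL genes encode cofactors that compete with YAP1 for TEAD. Of these 6 genes, 4 could be tested and limma called 0, also at an unadjusted p under 0.05. Their log2 fold changes were 0.18 for VGLL4, 0.01 for TEAD3, 0.22 for VGLL3 and -0.23 for TEAD2 (adjusted p = 0.295 to 0.985). A second probe of VGLL4 gave 0.52 (adjusted p = 0.101 over all probes). TEAD3 had levels of 0.51 to 0.75 in 3 sictrl arrays and 1.72 in sictrl A3, against 0.89 to 0.99 in siUCA1.

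**Figure D4:**
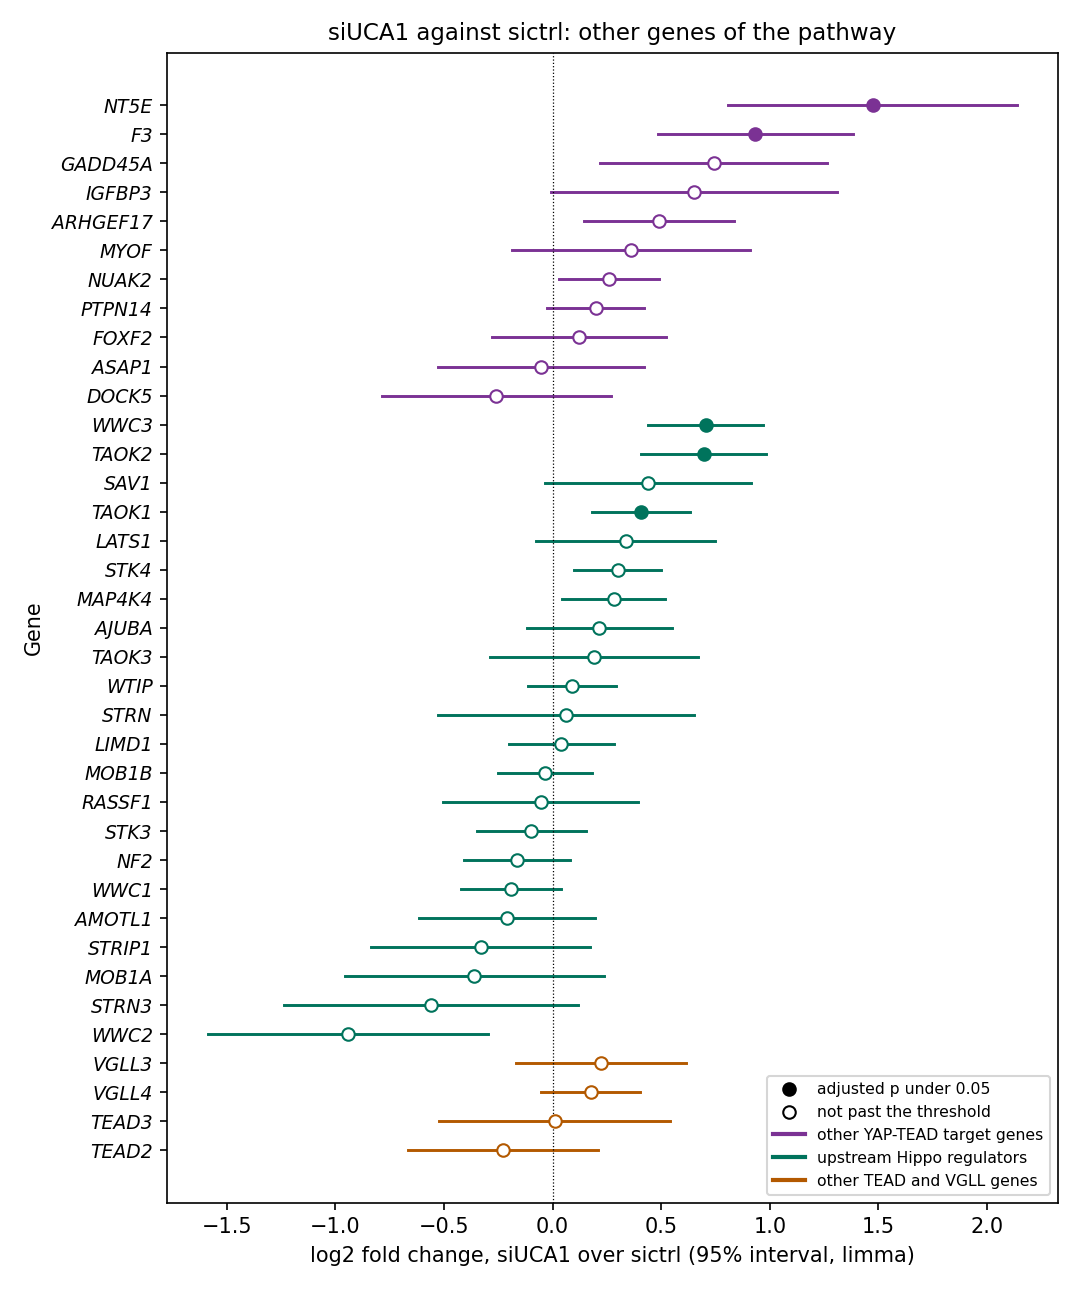
Log2 fold change of siUCA1 over sictrl (x axis) with the 95% interval from limma for 37 other genes of the pathway (y axis), coloured by list and ordered within each list. Filled points passed an adjusted p of 0.05. They are NT5E and F3 among the target genes and WWC3, TAOK2 and TAOK1 among the upstream regulators, all above 0.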

How the data were processed

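RNA was measured on 8 one-color Agilent arrays, 4 sictrl and 4 siUCA1. The authors deposited the output of Feature Extraction 10.7.3.1 (per the labels), in which the intensity of a spot is background-subtracted and corrected for a surface trend, but not normalized between arrays. The deposited value table of the series held the same intensity values.

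Of 60901 non-control spots per array, those marked as outliers were left out, and log2 values were computed from the deposited intensity. The 75th percentile over all non-control spots (106.5 to 134.5 on the intensity scale) was subtracted, in place of the percentile over probes that the plan named. Repeated spots were averaged per probe. Probes entered the fit when 1 group or both had Feature Extraction's flag for well above background on each of its 4 arrays, and the kept probe with the highest mean represented its gene. RefSeq accessions of GRCh38.p14 named 31104 of 58201 probes, and 11996 of the 15456 genes tested carry a RefSeq symbol. Files were read with data.table (version 1.17.8), and lmFit and eBayes of limma 3.58.1 were run in R 4.3.3 and tested on simulated data. Plots were drawn with Python 3.11.15 and matplotlib 3.10.9.

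The members and lists were chosen with earlier results of these data known. Beyond the members, UCA1 and SDHA, the text names every list gene called and, per list, the 3 not called with the highest mean. SDHA, the study's reference gene, was at -0.77 (adjusted p = 0.161), with its 4 probes between -0.77 and -0.13. It stood at 5.76 in siUCA1 A1 against 6.90 to 7.36 in the other siUCA1 arrays, and the fold change was -0.42 without that array and -0.34 as the mean of the probes. TEAD2, markers and the genes under other observations were named after their values were seen, and 1 marker is not reported here. Groups and replicate names came from the labels, and the 4 experiments were independent per the study's methods. Alternatives covered scaling, background, filter, probes, model and arrays, and 1 was added after seeing the data. The 4 arrays per group limit the precision.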

Additional observations from a re-analysis of the deposited data

Results flagged for a closer look

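Of 62 sets of 4 arrays examined for 1 array far from the other 3, 6 stood out, and about 5% of such sets do so by chance. The gap to the nearest array, as a share of the range of the set, was 0.839 for LATS2 in siUCA1 A1 (0.63 against 1.07 to 1.16), 0.878 for MYOF in siUCA1 A1 (5.63 against 6.60 to 6.74), 0.834 for F3 in siUCA1 M2 (4.48 against 4.06 to 4.13) and 0.888 for VGLL4 in sictrl A3 (2.31 against 2.02 to 2.05). It was 0.944 for the surface trend of sictrl A3 and 0.903 for that of siUCA1 A1. The part of the surface trend in the gene values was not tested beyond the settings that leave out these arrays or remove the remaining trend.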

How the results depend on the processing

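Of 25 alternatives, 24 were planned and 1, the 75th percentile over probe averages, was chosen after seeing the data (1596 genes called, members 2). CCN1, ANKRD1, NT5E, F3, WWC3 and UCA1 kept their direction under all 25. Median scaling called 535 genes (21.3% of them higher, against 49.4% as reported), with 1 member (ANKRD1), 1 other target gene, 0 upstream regulators and 1 member probe. It moved the median of all genes from 0.03 to -0.07, WTIP to -0.0077 and TEAD3 to -0.0863. Background correction by normexp (offset 50) called 380 genes (39.5% higher), with 0 members, 0 member probes and 1 other target gene. Without the detection filter, 76 of 47753 genes were called (39.5% higher), with 0 in each list and 0 member probes. Array weights called 4599 genes, 7 members and member probes, 5 other target genes and 6 regulators. Leaving out sictrl A3 and siUCA1 A1 together called 3878 genes, 6 members and member probes, 5 other target genes, 5 regulators and 1 TEAD or VGLL gene (VGLL4), and put AXL at 0.018. Removing the remaining surface trend called 2191 genes, 3 members and 5 regulators, and the mean of kept probes called 1 TEAD or VGLL gene (VGLL4). The replicate name as a replicate block called 1727 genes and 2 members, LATS2 (adjusted p = 0.0378) and CCN1, but not ANKRD1 (adjusted p = 0.0567), and 5 other target genes. Deviations from the group means correlated at 0.0384, 0.278, 0.216 and 0.127 between arrays named A1, M2, A2 and A3, and sictrl A1 and A3 correlated better with another name (0.109 and 0.177), so the names were not taken to pair the arrays. The slide row as a block called 1270 genes and 2 members. The cause of these shifts was not tested.

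Leaving out 1 array called 760 to 2290 genes, 0 to 4 members and member probes, 1 to 4 other target genes, 2 to 4 regulators and 0 TEAD or VGLL genes. TEAD3 was below 0 without sictrl A1 (-0.13), M2 (-0.05) or A2 (-0.05) and without siUCA1 A2 (-0.0075), within a range from -0.129 to 0.271, and AXL ranged from -0.295 to 0.0491, above 0 only without sictrl A3. With 4 arrays per group and probes such as CCN2 near background, small changes were not resolved, and dim signals limit what the fold changes of such genes can show.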

Other observations

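A few further genes of the lists did not pass the threshold, and they are named here after their values were seen. Among target genes, the stress gene GADD45A was at 0.74 (95% interval 0.22 to 1.26, adjusted p = 0.0728, limma), and IGFBP3, which binds insulin-like growth factors, at 0.65 (interval -0.01 to 1.31, adjusted p = 0.186). Among regulators, STK4, which encodes a core Hippo kinase, was at 0.30 (interval 0.10 to 0.50, adjusted p = 0.0614), and WWC2, of the same family as WWC3, was at -0.94 (interval -1.59 to -0.30, adjusted p = 0.0676). The intervals of WWC2 and WWC3 lay on opposite sides of 0, and the difference between these 2 genes was not tested.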
